A study of Mus musculus with 36 samples.

Results

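The immediate early genes described here are Fos, Fosb, Jun, Junb, Egr1, Egr2, Egr3, Atf3, Nr4a1 and Ier2. They were taken by symbol as 10 of the 51912 Ensembl gene IDs in each count table, and all 10 passed the filter on low counts in the soleus and in the TA (tibialis anterior). RNA-seq was done on whole soleus and TA muscle of 3-month-old C57BL/6 mice, with 9 libraries in each of 4 groups: WT soleus, ∆Ig3-MuSK soleus, WT TA and ∆Ig3-MuSK TA. The ∆Ig3-MuSK animals carry a germline deletion, made with CRISPR-Cas9, of the exons that encode the third immunoglobulin-like domain of MuSK, the domain through which this muscle receptor kinase binds BMPs. The deletion is therefore present in all cells of the animal and is not limited to a muscle or a fiber type. Whole muscle holds vessel, nerve, connective tissue and blood cells beside the myofibers, so fewer cells of a type and less RNA per cell cannot be told apart.

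Immediate early genes are switched on within minutes of a stimulus and need no new protein synthesis for it. Most of them encode transcription factors: the Fos and Jun proteins pair to form AP-1, the Egr proteins are zinc finger factors, Atf3 is a stress-induced relative of the CREB and AP-1 factors, Nr4a1 is an orphan nuclear receptor, and Ier2 encodes a small nuclear protein. In skeletal muscle, nerve activity, contraction, stretch and injury are known to induce them, mostly through kinases that act on SRF with its ternary complex partners (bound at the CArG box) and on CREB (bound at the CRE).

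Promoter sequence is shown for 5 members, because, among members with a window, their levels had the smallest p between the genotypes of the soleus (Fos, Fosb, Egr2), followed Egr1 among libraries (Fos, Junb) or ran opposite to the other members between the muscles (Nr4a1). RefSeq windows of GRCm38.p6 matched 7 of the 10 members. The start of a gene here and below means the start that its window gives. For Egr2, Atf3 and Nr4a1 this start lies inside the gene span given further on, not at its outer end. For Fosb it also lies inside the span, a few bases from the outer end, and for Junb it lies outside the span. Capitals mark CRE half-sites (TGACG or its reverse complement CGTCA), the CArG box and TATAAA, and each run is read on the strand of the gene up to the last base outside an annotated exon.
Fos (chr12:85473770-85473889, + strand): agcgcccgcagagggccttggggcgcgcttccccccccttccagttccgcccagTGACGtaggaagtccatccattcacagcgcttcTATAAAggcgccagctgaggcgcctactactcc
Fosb (chr7:19310052-19310171, - strand): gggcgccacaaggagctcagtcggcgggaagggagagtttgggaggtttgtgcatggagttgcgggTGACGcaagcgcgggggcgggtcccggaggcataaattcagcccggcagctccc
Junb (chr8:84978749-84978868, - strand): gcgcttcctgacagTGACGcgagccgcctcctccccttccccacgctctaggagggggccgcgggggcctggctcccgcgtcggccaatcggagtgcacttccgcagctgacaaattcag
Egr2 (chr10:67537749-67537868, + strand): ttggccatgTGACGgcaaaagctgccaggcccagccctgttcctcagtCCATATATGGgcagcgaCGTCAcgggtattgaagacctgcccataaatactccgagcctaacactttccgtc
Nr4a1 (chr15:101266726-101266845, + strand): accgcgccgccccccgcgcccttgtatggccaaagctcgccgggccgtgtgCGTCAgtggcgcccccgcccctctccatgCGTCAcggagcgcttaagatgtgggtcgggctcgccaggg

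Over the 250 bases before the start, searched on both strands, a CRE half-site was found in 6 of the 7 members whose window was used (Fos, Fosb, Junb, Egr2, Atf3 and Nr4a1) and in 17.8% of the 32851 RefSeq windows. Jun had none of these letters in its window. The half-sites of Fos lay 129 and 66 bases before its start, and those of Nr4a1 lay 233, 213, 69 and 40 bases before its start. A CArG box was found only in Egr2 among the 7, beginning 72 bases before the start, and in 1.47% of all windows. TATAAA was found only in Fos among the 7, 33 bases before the start, and in 12.4% of all windows. The complete CRE (TGACGTCA, which holds overlapping half-sites of both strands) and the AP-1 site (TGACTCA or TGAGTCA) were found in 0 of the 7 and in 1.55% and 4.46% of all windows. These matches describe letters only and were not tested against the expression values.

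Levels are given as CPM, read counts relative to library size, scaled with TMM factors over the 36 libraries. To compare genes with each other the CPM was divided by the length of the gene's exons in kilobases, which is done in this paragraph only. On this scale Jun and Nr4a1 were the most abundant members in all 4 groups, at 29.3 ± 4.97 (SD, n = 9) and 15.6 ± 7.65 in WT soleus, a gap wider than both SDs together, and at 23.8 ± 2.99 and 28.4 ± 9.74 in WT TA, within the larger SD. Junb and Ier2 came next, at 7.79 and 7.92 in WT soleus and 4.80 and 4.40 in WT TA, and Junb and Ier2 differed by less than their SD in all 4 groups. Egr1, Fos and Atf3 lay between 4.41 and 6.47 in WT soleus and between 1.02 and 1.87 in WT TA. Fosb, Egr2 and Egr3 were the 3 lowest in all 4 groups, at 0.0673 to 0.397, and the lowest raw count of any member in any library was 4, for Egr3 in a WT TA library.

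The genes lie on 9 chromosomes of GRCm38. Fos spans 85473890-85477273 on chromosome 12, Fosb 19302696-19310051 on chromosome 7, Jun 95049034-95052222 on chromosome 4, Egr2 67535475-67542188 on chromosome 10, Egr3 70077203-70082614 on chromosome 14, Atf3 191170296-191218039 on chromosome 1, Nr4a1 101254269-101274795 on chromosome 15 and Egr1 34859823-34864984 on chromosome 18. Junb (84974484-84978718) and Ier2 (84661331-84662852) are both on chromosome 8. Exons of Junb overlap those of Prdx2 and exons of Jun overlap those of Junos, both on the opposite strand. The libraries were made without strand information, so reads from those overlaps cannot be told apart.

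The libraries held 43492062 to 78660422 counts, and no pair of libraries of a muscle agreed within sampling noise. ∆Ig3-MuSK soleus libraries were deeper than WT soleus libraries (medians 51110940 and 45371395; exact permutation p = 0.00893, two-sided) and held a larger share of mitochondrial counts (medians 15.04% and 13.9%; exact permutation p = 0.0129), whereas in the TA these permutation p-values were 0.585 and 0.421. All slow fiber markers listed (9 of 9) were higher in soleus than in TA in both genotypes. Musk averaged 15.2 ± 1.82 CPM in WT soleus, 11.3 ± 3.29 in ∆Ig3-MuSK soleus, 4.25 ± 0.948 in WT TA and 3.09 ± 0.391 in ∆Ig3-MuSK TA. The genotype difference in Musk did not pass the test in soleus (1.35-fold lower, edgeR adjusted p = 0.0978) or TA (1.38-fold lower, adjusted p = 0.135). In ∆Ig3-MuSK mice its gene count covers the exons that remain, so it is no direct check of the deletion. In WT mice the count also covers the deleted exons. Loss of these exons and less transcript therefore cannot be told apart in the 2 folds.

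**Figure D1:**
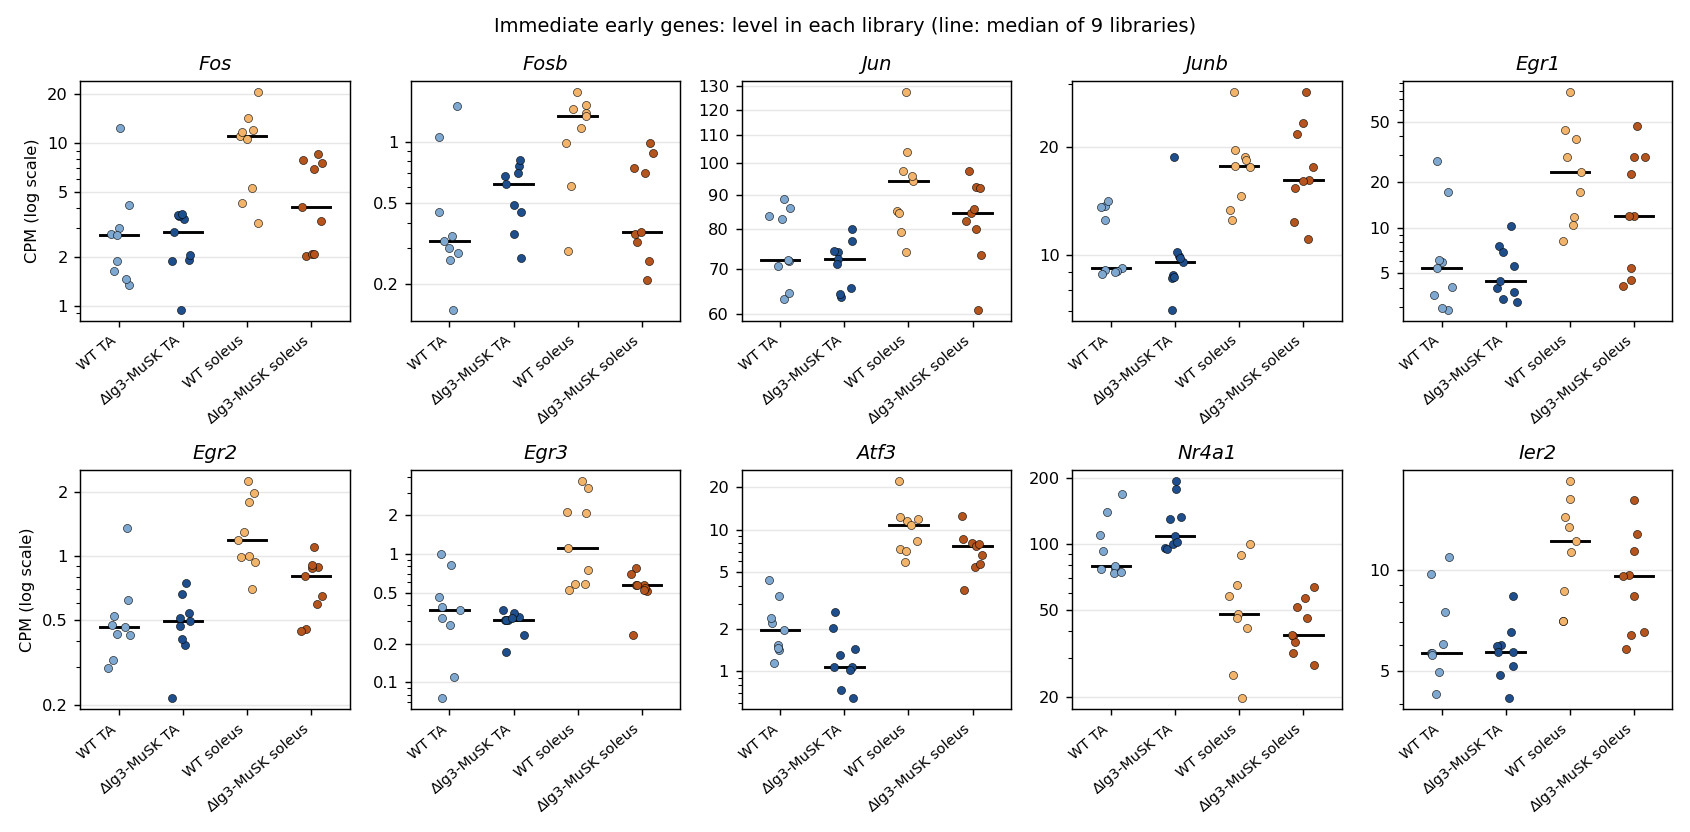
Level of each immediate early gene in CPM (log axis) in the 9 libraries of each of the 4 groups; each point is a library and each line the median of its group. Atf3 in soleus lies above the TA in both genotypes without overlap, Nr4a1 is the member with its higher levels in TA, and Egr3 reaches 2.09 to 3.72 CPM in 4 WT soleus libraries.

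The first comparison asks whether the level of these genes differed between WT and ∆Ig3-MuSK mice in the soleus, the muscle with more Musk. The sample labels do not record how the muscles were handled before RNA was taken. Levels at rest and levels changed by handling therefore cannot be told apart. A gene was called when edgeR's quasi-likelihood test gave a Benjamini-Hochberg adjusted p under 0.05 over all genes tested and a change of at least 1.2-fold. Egr3 was called lower in ∆Ig3-MuSK soleus, and it was the only member called (1 of 10, against 0.586% of all genes called lower). All 10 members had a negative log2 fold change, with a median of -0.62 beside -0.0017 for the 19439 genes tested. At an unadjusted p under 0.05, Egr3, Egr2, Fosb, Fos and Atf3 were lower, 5 of 10 members against 10.1% of all genes. Of the other 5, Jun, Junb, Egr1, Nr4a1 and Ier2, none reached this limit.

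Egr3, a zinc finger factor needed for the formation of muscle spindles, had 0.522, 1.10 and 3.72 CPM as lowest, median and highest value in WT soleus and 0.235, 0.570 and 0.772 CPM in ∆Ig3-MuSK soleus. The WT libraries were spread widely, with 4 libraries (replicates 3, 4, 5 and 6) between 2.09 and 3.72 CPM and the other 5 between 0.522 and 1.10 CPM. The ∆Ig3-MuSK libraries lay close together within the lower part of that range, so the groups overlap, although all 9 were below the WT mean of 1.64 CPM. Egr3 fell by 1.56 on the log2 scale (SE 0.38), or 2.95-fold, with an adjusted p of 0.0459 from edgeR. This call is at the edge of the threshold: without any 1 of 14 of the 18 libraries the adjusted p was between 0.0532 and 0.1003, and it stayed under 0.05 only without WT replicate 1, 2 or 7 or ∆Ig3-MuSK replicate 7. The log2 fold change remained between -1.68 and -1.31 in these fits.

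Egr2, a factor best known from Schwann cell myelination and related in sequence to Egr3, ranged from 0.702 over a median of 1.19 to 2.26 CPM in WT soleus and from 0.444 over 0.808 to 1.11 CPM in ∆Ig3-MuSK soleus. All 9 ∆Ig3-MuSK libraries lay below the WT mean of 1.35 CPM, and 5 of the 9 WT libraries lay above the highest ∆Ig3-MuSK library. Its log2 fold change was -0.86 (SE 0.22), and its adjusted p of 0.0580 from edgeR missed the threshold. Egr1, the most studied member of the family and a target of the ERK pathway, ranged from 8.18 to 78.5 CPM (median 23.3) in WT soleus and from 4.16 to 46.7 CPM (median 11.99) in ∆Ig3-MuSK soleus. The spread within each group was 9.59-fold and 11.2-fold, wider than the difference between the groups (log2 fold change -0.67, SE 0.48, edgeR adjusted p = 0.479).

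Fos, the AP-1 subunit that is quickly made and quickly degraded, had 3.22, 11.1 and 20.7 CPM as lowest, median and highest value in WT soleus and 2.03, 4.08 and 8.61 CPM in ∆Ig3-MuSK soleus. Of the 9 WT libraries, 6 lay above the highest ∆Ig3-MuSK library. Fosb, its close relative, had 0.289, 1.34 and 1.76 CPM in WT soleus and 0.209, 0.362 and 0.981 CPM in ∆Ig3-MuSK soleus, and 7 of 9 WT libraries lay above the highest ∆Ig3-MuSK library. The groups overlap for both genes. The log2 fold changes were -1.07 (SE 0.35, edgeR adjusted p = 0.120) for Fos and -1.14 (SE 0.32, adjusted p = 0.0745) for Fosb. The Jun partners differed less: Jun had 93.5 ± 15.9 CPM (SD, n = 9) in WT and 83.2 ± 11.1 CPM in ∆Ig3-MuSK soleus (log2 fold change -0.18, SE 0.094), and Junb had 17.9 ± 4.70 and 18.03 ± 5.53 CPM. For Junb the fit within soleus gave a log2 fold change of -0.0051 (SE 0.17), with a sign opposite to that of the means. That fit used TMM factors of the soleus libraries, and the CPM those of all 36.

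Atf3, a stress-response factor, averaged 10.8 ± 4.87 CPM in WT and 7.36 ± 2.45 CPM in ∆Ig3-MuSK soleus, with a log2 fold change of -0.57 (SE 0.23, edgeR adjusted p = 0.182). Its highest WT library, replicate 6, had 22.2 CPM, and the next had 12.3 CPM. Nr4a1, the nuclear receptor that acts on glucose use in muscle, averaged 54.6 ± 26.8 and 43.2 ± 11.99 CPM (log2 fold change -0.35, SE 0.25). Ier2 averaged 12.1 ± 3.97 and 9.63 ± 3.36 CPM (log2 fold change -0.34, SE 0.21). The groups overlap for all 10 members, and the differences of cell type markers between the same groups are given further on.

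The alternative tests called different numbers of members. DESeq2 called Fosb, Egr2 and Egr3 lower, 3 of 10 against 1.67% of all genes, and limma-voom with quality weights called Fos, Fosb and Egr2 lower, 3 of 10 against 2.01% of all genes. The edgeR count over all genes was itself unsteady: 185 genes were called in either direction, and between 22 (without WT soleus replicate 5) and 602 (without WT soleus replicate 1) when a library was left out. The numbers that the labels give to WT and ∆Ig3-MuSK libraries run in separate ranges that do not interleave, so a difference of numbering and of genotype cannot be told apart.

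In the TA the same comparison gave 0 of 10 members called by edgeR, against 0.0149% of all 20075 genes, and also 0 by DESeq2 and by limma-voom. At an unadjusted p under 0.05 only Atf3 differed (1 of 10, against 24.1% of all genes). The median log2 fold change of the members was -0.19 beside -0.0032 for all genes, and 8 of 10 were negative. Atf3 had 1.14, 1.95 and 4.40 CPM as lowest, median and highest value in WT TA and 0.642, 1.07 and 2.62 CPM in ∆Ig3-MuSK TA, where 8 of 9 libraries lay below the WT mean. Its log2 fold change of -0.73 (SE 0.27, edgeR adjusted p = 0.163) stands beside -0.57 in soleus. Nr4a1 had 74.1, 79.5 and 169 CPM in WT TA and 95.2, 109 and 195 CPM in ∆Ig3-MuSK TA, a log2 fold change of 0.35 (SE 0.18, adjusted p = 0.234).

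A WT library, TA replicate 9, stood apart for these genes: it held the highest WT TA value of 8 of the 10 members and was among the 3 highest for all 10. Fos was 12.5 CPM there and at most 4.16 CPM in the other 8 WT TA libraries, and Egr1 was 27.4 CPM against a group median of 5.44 CPM. Without it the TA log2 fold change turned from -0.40 to 0.17 for Fos and from -0.17 to 0.14 for Egr2, and shrank from -0.62 to -0.14 for Egr1. The low end was held by ∆Ig3-MuSK TA replicate 9, which was among the 3 lowest of its group for 9 members, with 0.945 CPM of Fos.

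**Figure D2:**
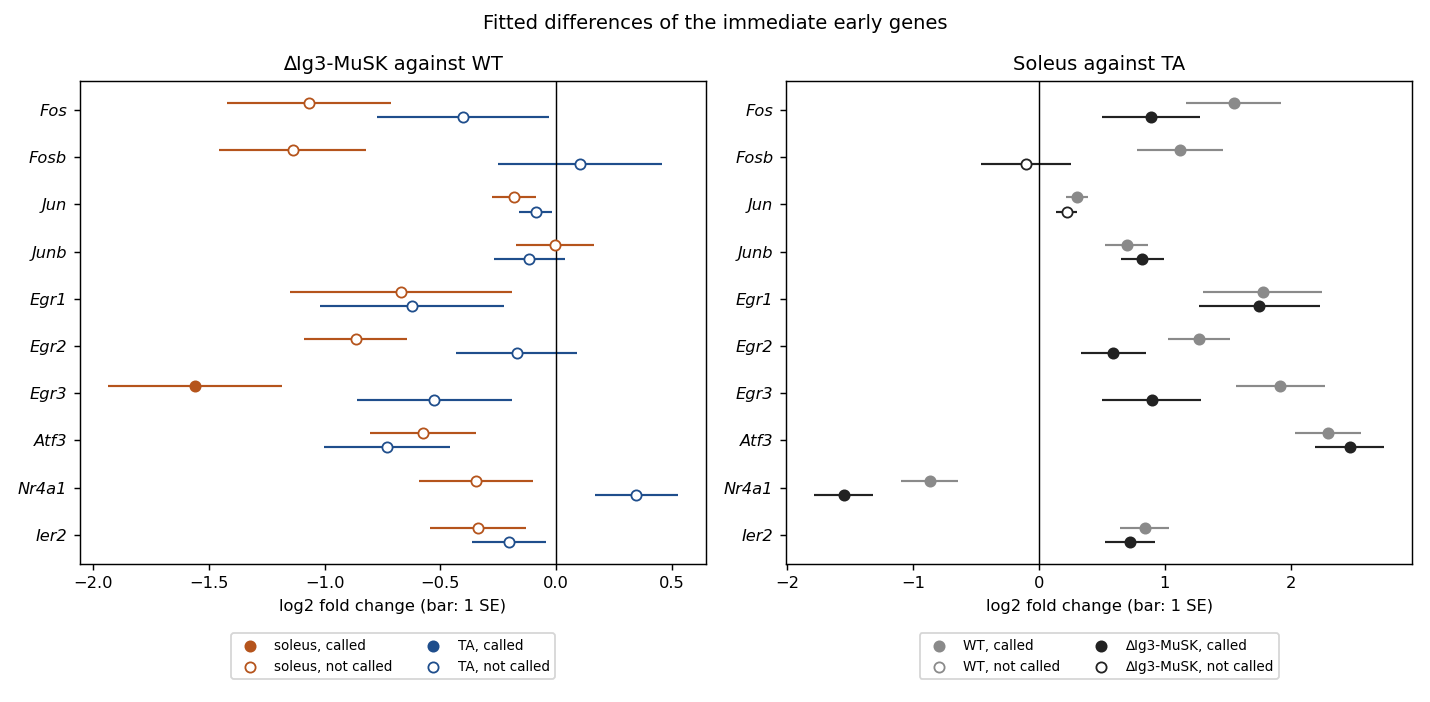
Fitted log2 fold change of each immediate early gene (point) with its standard error (bar): left, ∆Ig3-MuSK against WT in soleus and TA; right, soleus against TA in WT and ∆Ig3-MuSK. Filled points passed the test. In the left panel only Egr3 in soleus is filled, at -1.56, and in the right panel Nr4a1 alone lies clearly below 0, at -0.87 and -1.55.

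Whether the genotype difference itself differs between the muscles was tested as an interaction in a fit over the 36 libraries. edgeR called 0 of 10 members and 0% of all 20841 genes. DESeq2 gave an adjusted p for only 5 of the members (Jun, Junb, Egr1, Nr4a1 and Ier2) and called none of these 5, against 8.74% of the 9123 genes with an adjusted p, so it says nothing on Fos, Fosb, Egr2, Egr3 and Atf3. At an unadjusted p under 0.05, Fosb (interaction -1.23 on the log2 scale, SE 0.50, adjusted p = 0.131) and Nr4a1 (-0.68, SE 0.32, adjusted p = 0.182) differed, 2 of 10 against 24.9% of all genes. limma-voom called Fosb, 1 of 10 against 4.6% of all genes. Without WT TA replicate 9, edgeR called Fosb (-1.62, adjusted p = 0.0406) and Egr2 (-0.99, adjusted p = 0.0481), 2 of 10 against 6.21% of all genes.

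The muscles were compared within each genotype in the same fit. In WT mice 9 of 10 members were called higher in soleus than in TA (30.2% of all genes were) and Nr4a1 was called lower (27.3% of all genes were), with a median log2 fold change of 1.1995 beside 0.018 for all genes. Atf3 showed the widest gap of the 10, at 10.8 ± 4.87 CPM (SD, n = 9) in WT soleus and 2.20 ± 1.07 in WT TA, 4.92-fold higher with an edgeR adjusted p of 8.36e-10. It was the only member whose 9 soleus libraries all lay above all 9 TA libraries in WT (1 of 10, against 14.6% of all genes) and again in ∆Ig3-MuSK mice (14.8% of all genes). Egr3, Egr1 and Fos followed, 3.78-fold, 3.43-fold and 2.92-fold higher, with adjusted p of 1.19e-05, 0.00115 and 0.000517. Egr2 was 2.42-fold, Fosb 2.18-fold, Ier2 1.79-fold, Junb 1.62-fold and Jun 1.23-fold higher. Only 2 of 9 WT soleus libraries had more Fos than WT TA replicate 9, and without that library the log2 fold change of Fos between the muscles was 2.12 in place of 1.55. Markers of other cell types differed between the same WT libraries: 6 of 7 endothelial, 5 of 5 tendon, 5 of 5 smooth muscle and pericyte, 4 of 5 adipocyte, 3 of 4 satellite cell and 3 of 5 red blood cell markers were called higher in soleus, and 5 of 7 neuron and 8 of 9 fast fiber markers lower. Their part in the values of the members was not tested.

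Nr4a1 ran the other way. It had 19.7, 47.8 and 100.3 CPM as lowest, median and highest value in WT soleus against 74.1, 79.5 and 169 CPM in WT TA, and was 1.82-fold lower in soleus (edgeR adjusted p = 0.00111). In ∆Ig3-MuSK mice it was 2.93-fold lower (43.2 ± 11.99 against 126 ± 37.0 CPM, adjusted p = 3.15e-07), and there all soleus libraries lay below all TA libraries (14.6% of all genes did so). In WT the libraries overlapped, and 0 of 10 members had all soleus libraries below all TA libraries (13.7% of all genes).

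In ∆Ig3-MuSK mice 7 of 10 members were called higher in soleus (28.5% of all genes) and Nr4a1 lower (27.6% of all genes), and the median log2 fold change was 0.77 beside -0.0013. Atf3 was again highest, 5.54-fold, followed by Egr1 at 3.37-fold. Fos (1.86-fold), Egr3 (1.86-fold) and Egr2 (1.51-fold) passed with adjusted p between 0.0414 and 0.0436, and all 3 lost their call when ∆Ig3-MuSK soleus replicate 2, 3 or 8 or ∆Ig3-MuSK TA replicate 1, 2, 8 or 9 was left out, which left 5 members called. Fosb, at 0.535 ± 0.292 CPM in soleus and 0.572 ± 0.191 CPM in TA, was not called (log2 fold change -0.10, SE 0.36), nor was Jun, whose 1.17-fold difference lay under the 1.2-fold limit. Of the 4 groups, WT soleus had the highest mean level of each member except Nr4a1 and Junb, which had theirs in ∆Ig3-MuSK TA and ∆Ig3-MuSK soleus. The interaction tests given above are the test of the difference between the WT and the ∆Ig3-MuSK result.

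Among libraries of a group the members varied by different amounts. The coefficient of variation in WT soleus was 77.2% for Egr1, 74.8% for Egr3 and 53.1% for Fos, but 26.2% for Junb and 16.9% for Jun. Covariation was then measured as Pearson's r of log2 CPM over the 18 libraries of a muscle after the mean of each genotype had been subtracted, with 100000 permutations within genotype and adjustment over the 90 pairs of both muscles. In soleus 12 of 45 pairs passed an adjusted p under 0.05, all positive, and the median r over the 45 was 0.37. In TA 12 of 45 passed, again all positive, with a median of 0.46. Of these, 7 pairs passed in both muscles, and 5 passed in soleus and 5 in TA without passing in the other, a difference that was not itself tested. Pairs of other genes were not put through this procedure, so no share over all genes can be given beside these counts.

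**Figure D3:**
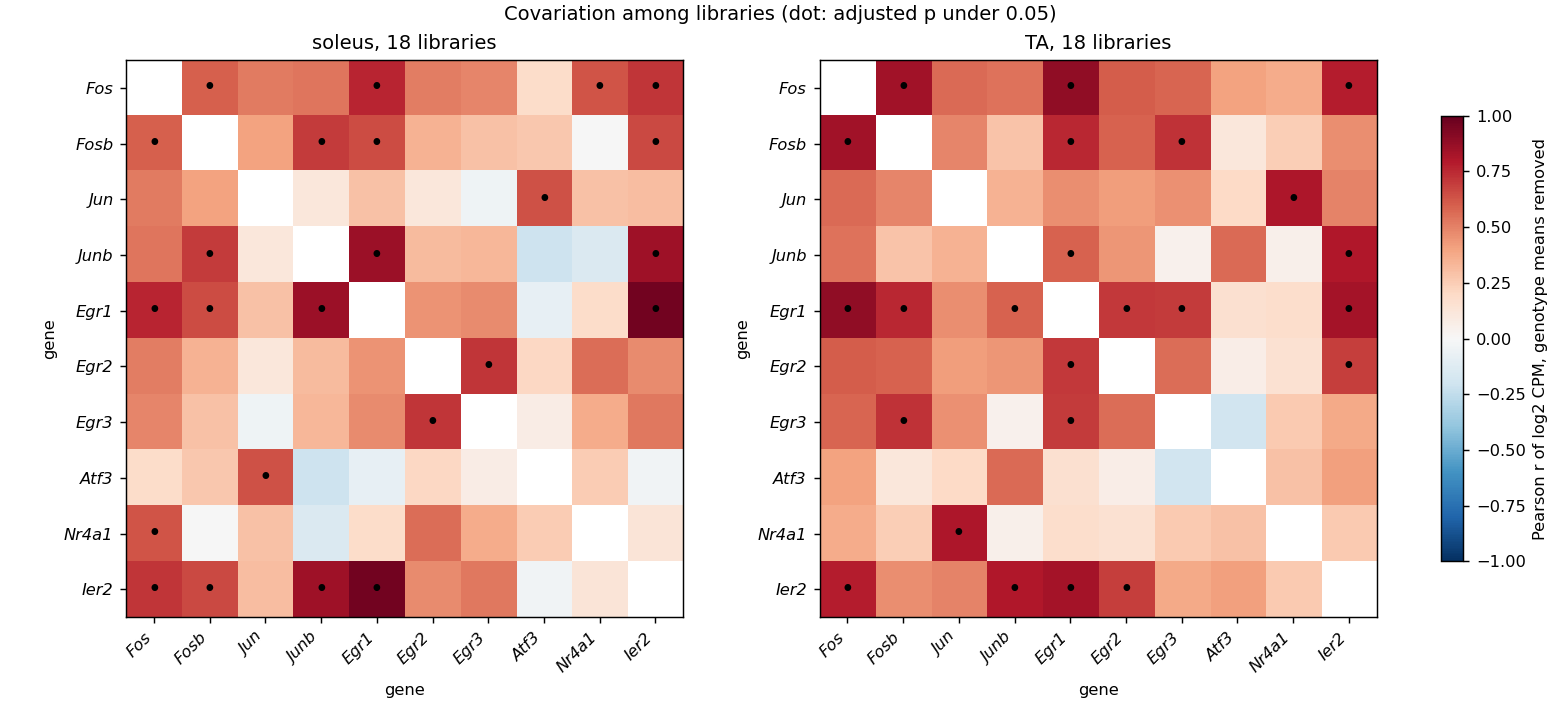
Pearson's r between each pair of immediate early genes among the 18 soleus libraries (left) and the 18 TA libraries (right), computed on log2 CPM with genotype means removed; red is positive, blue negative, and a dot marks an adjusted permutation p under 0.05. Egr1 and Ier2 are marked with each other (0.96 in soleus) and with both Fos and Junb in both muscles. Fos with Junb is not marked in either. Atf3 and Nr4a1 have mostly pale cells, and Jun, like Nr4a1, is marked with 1 member in each muscle.

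The tightest pair was Egr1 with Ier2. In soleus r was 0.96 (Spearman's rho 0.93) with an adjusted permutation p of 0.00045 (unadjusted 1e-05, the smallest these permutations can give), and r was 0.98 in the 9 WT and 0.96 in the 9 ∆Ig3-MuSK libraries taken alone. In TA r was 0.83 (rho 0.70, adjusted permutation p = 0.00247), and 0.65 without the 2 libraries farthest from the Egr1 median. Such libraries were chosen on 1 gene of a pair, so libraries far out for the other gene could remain. Junb followed both genes in soleus (r = 0.86 with Egr1 and 0.85 with Ier2, rho 0.85 and 0.84, adjusted permutation p = 0.00054 for each), although its mean did not separate the genotypes. In TA Junb followed Ier2 (r = 0.80, rho 0.79, adjusted permutation p = 0.00054). With Egr1 it passed by r (0.59, adjusted permutation p = 0.0219) but not by rho (0.51, adjusted permutation p = 0.130). Without the 2 libraries farthest from the Junb median, r was 0.39. Fos followed Egr1 in soleus (r = 0.77, rho 0.73, adjusted permutation p = 0.00648) and in TA (r = 0.89, rho 0.89, adjusted permutation p = 0.00045).

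Among relatives, Fos and Fosb had r = 0.60 in soleus (rho 0.65, adjusted permutation p = 0.0437) and 0.84 in TA (rho 0.81, adjusted permutation p = 0.0012). Egr2 and Egr3 had r = 0.71 in soleus (rho 0.65, adjusted permutation p = 0.0154), and r was 0.58 without the 2 libraries farthest from the Egr2 median. Within genotype r of this pair was 0.91 in WT and 0.21 in ∆Ig3-MuSK soleus, where Egr3 spanned a narrow range, and the 2 values were not tested against each other. In the TA the same pair did not pass (r = 0.56, rho 0.43, adjusted permutation p = 0.0760). Egr1 passed there with Egr2 (r = 0.71, rho 0.58, adjusted permutation p = 0.0121) and Egr3 (r = 0.70, rho 0.62, adjusted permutation p = 0.0437), but by rho both had 0.0516. Without the 2 libraries farthest from the Egr1 median, r was 0.46 and 0.41.

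Atf3, Nr4a1 and Jun each passed with no more than 1 other member in a muscle. For Jun this was Atf3 in soleus and Nr4a1 in TA, and its median r was 0.29 in soleus and 0.46 in TA. Egr2 and Egr3 also passed with 1 member each in soleus, but with 2 each in TA. Atf3 had a median r of 0.18 with the other 9 members in soleus and 0.20 in TA, and it passed with Jun alone, in soleus (r = 0.64, rho 0.68, adjusted permutation p = 0.0328). Nr4a1 had a median r of 0.25 in soleus and 0.26 in TA. It passed with Fos in soleus (r = 0.63, rho 0.50, adjusted permutation p = 0.0257, which by rho was 0.122) and with Jun in TA (r = 0.81, rho 0.79, adjusted permutation p = 0.0018). The pair of Atf3 and Egr1 had r of -0.084 in soleus and 0.16 in TA, neither of which passed.

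**Figure D4:**
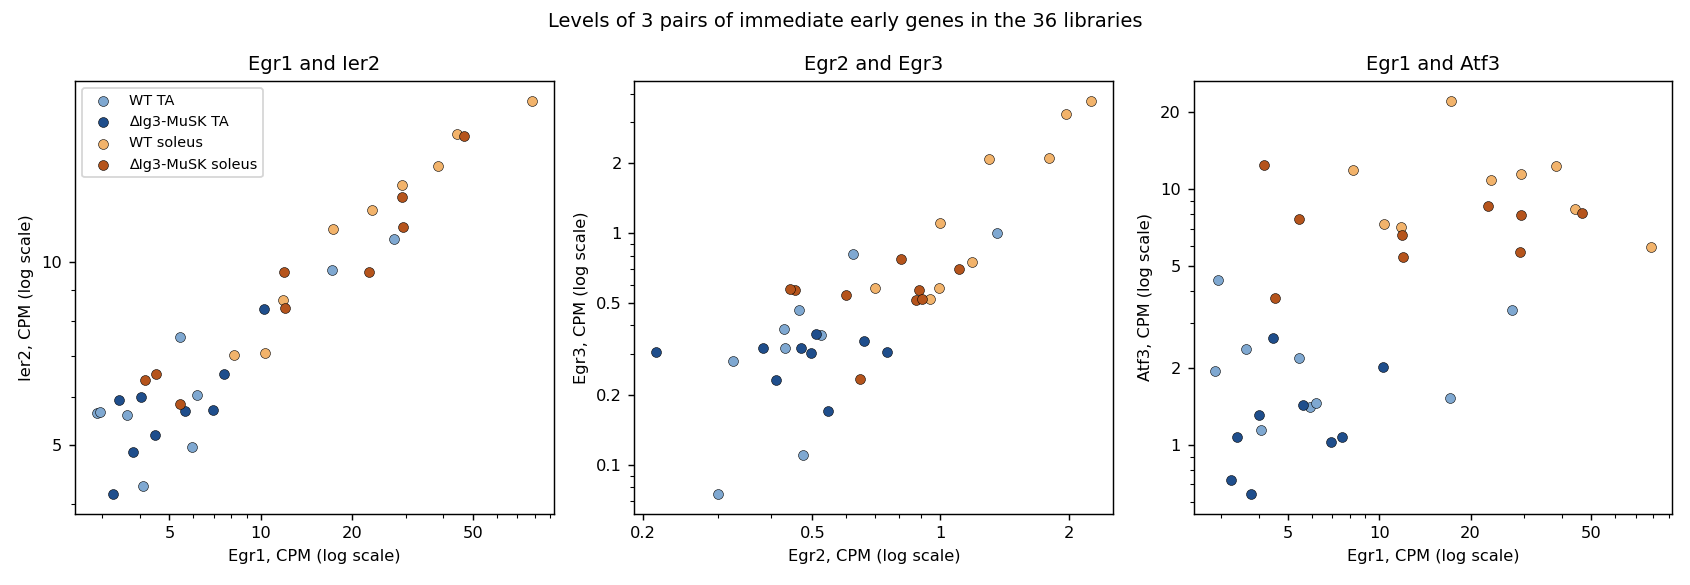
Levels in CPM (log axes) of Egr1 against Ier2, Egr2 against Egr3 and Egr1 against Atf3, each point 1 of the 36 libraries, colored by group. Egr1 and Ier2 lie along a line in every group, Egr2 and Egr3 do so in WT soleus (r = 0.91) but not in ∆Ig3-MuSK soleus (r = 0.21), and Atf3 separates the muscles without following Egr1.

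Set against all genes, an r of at least 0.7 with Egr1 was reached by 3 of the other 9 members in soleus (Fos, Junb and Ier2; 0.129% of 19438 genes) and by 4 in TA (Fos, Fosb, Egr2 and Ier2; 0.115% of 20074 genes). A wider list of 53 other immediate early and early response genes, of which 51 were tested, held 1 such gene in soleus and 2 in TA: Zfp36 in soleus (r = 0.73), and Socs3 (0.75) and Ccn1 (0.70) in TA, with medians of 0.20 and 0.29 over that list. These 3 genes are named after their values were seen. Egr1 was also set against the total count and the summed level of each of 12 marker lists of fiber and cell types. None of these 26 relations passed over all 18 libraries of a muscle (r from -0.37 to 0.41, smallest adjusted permutation p = 0.784). Leaving out the 2 libraries farthest from the median of a measure moved several of these values, among them fibroblast markers in TA from 0.41 to -0.018, Schwann cell markers in soleus from -0.28 to -0.77 and the total count in soleus from -0.21 to -0.53, and the values without those libraries were not tested.

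For 8 WT and 8 ∆Ig3-MuSK numbers in the labels, both a TA and a soleus library carry the number, and the labels do not say whether these are from the same animal. The legend in the paper can be read as separate animals for every library, or as a soleus and a TA from the same animal. A shared number may therefore mark an animal or not. The reported fits between the muscles and of the interaction did not pair libraries by number. Results with the label number as a block are given further on. Over the 16 pairs of libraries that share a number, the levels in the 2 muscles were compared with genotype means removed. None of the 10 members passed an adjusted p under 0.05. The 3 highest were Junb (r = 0.61, rho 0.54), Ier2 (r = 0.57, rho 0.58) and Egr1 (r = 0.55, rho 0.55), each with an unadjusted permutation p between 0.0179 and 0.0266 and an adjusted permutation p of 0.0886. An r of at least 0.5 was reached by 3 of 10 members and by 9.41% of all genes, and the median was 0.23 for the members and 0.14 for all genes. Egr3 had r = -0.40.

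The genes whose levels followed the mean standardised level of the members most closely are given as a description, over 18 libraries a muscle. In soleus these were Gm38287 (r = 0.84), Snora31 (0.83), Nrarp (0.83), Rab33b (0.81), Hdhd3 (0.78) and Daam1 (0.77), and the lowest were Bag5 (-0.79), Kiss1r (-0.78) and Gm43300 (-0.74). In TA they were Ccn1 (0.84), a matricellular protein gene that is itself an immediate early gene, Csgalnact1 (0.83), Otud1 (0.79), Togaram2 (0.78), Cers6 (0.78) and Tgfb1 (0.78), and the lowest were Gm6712 (-0.82), Fam151b (-0.78) and Gm14902 (-0.77). No gene was among the 6 highest in both muscles.

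The wider list of immediate early genes gave 4 genes called lower and 0 higher in ∆Ig3-MuSK soleus among 51 tested, with a median log2 fold change of -0.19. Over all genes 0.586% were called lower. Those called were Ccn1 (-0.76, SE 0.14, edgeR adjusted p = 0.0219), Sik1 (-0.67, SE 0.13), a kinase that restrains CREB coactivators, Fosl2 (-0.54, SE 0.11), an AP-1 subunit, and Plk3 (-1.12, SE 0.25), a stress-responsive kinase. At an unadjusted p under 0.05, 16 of 51 were lower, against 10.1% of all genes, and 4 were higher. In the TA 0 of 51 were called by edgeR (0.0149% of all genes were). At an unadjusted p under 0.05, 3 were lower and 2 higher, against 24.1% of all genes in either direction. The 3 with the smallest p were Fosl1 (0.46), Nfkbiz (0.34) and Sgk1 (-0.36).

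Among 24 tested upstream factors and partners, the ternary complex factor Elk3 was called lower in ∆Ig3-MuSK soleus (log2 fold change -0.29, SE 0.058, edgeR adjusted p = 0.0290). This is 1 of 24, against 0.586% of all genes called lower. In the TA 0 of 24 were called by edgeR (0.0149% of all genes were), with 5 at an unadjusted p under 0.05, against 24.1% of all genes. The smallest p were those of Elk4 (0.19), Crem (-0.26) and Rps6ka5 (-0.21).

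Other genes moved with the genotype in the same libraries, and their part in the values of the members was not tested. Of 16 circadian clock genes, some of which are also induced early by stimuli, 9 were called higher and 2 lower in ∆Ig3-MuSK soleus, led by Nr1d2 (0.47), Dbp (1.23), Per3 (0.94), Npas2 (-1.18), Ciart (1.65) and Hlf (0.85). Over all 19439 genes tested in soleus, 71 were called higher and 114 lower. In the TA Dbp alone was called (0.90, SE 0.11, edgeR adjusted p = 0.0012), 1 of 16 against 0.0149% of all genes. Summed tendon markers ranged from 147 to 411 CPM in WT soleus and from 10.98 to 296 CPM in ∆Ig3-MuSK soleus, and 5 of 5 had a negative log2 fold change (median -0.63), 0 of them called. Endothelial markers summed to 299 to 405 and 261 to 360 CPM, with 7 of 7 negative (median -0.16) and 0 called. Of the 5 smooth muscle and pericyte markers 4 were negative (median -0.21) and Acta2 alone was called lower. Their sum had a median of 567 CPM in WT soleus and 566 CPM in ∆Ig3-MuSK soleus. Of the 7 neuron markers, which summed to 2.59 to 4.48 and 2.87 to 6.21 CPM, 6 were positive (median 0.59), and Syt1 and Gad1 were called higher. Fast fiber markers had 9 of 9 positive (median 0.30) and macrophage and leukocyte markers 7 of 10 negative (median -0.35), with 0 called in either list. Adipocyte markers were 5 of 5 positive (median 0.50), Schwann cell markers 6 of 6 positive (median 0.17) and red blood cell markers 5 of 5 positive (median 0.29). Fibroblast markers were 5 of 6 negative (median -0.17), slow fiber markers 6 of 9 negative (median -0.058) and satellite cell markers 3 of 4 negative (median -0.057). In these 6 lists 0 markers were called. No marker of the 12 lists was at 0 in all libraries of a group.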

How the data were processed

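Total RNA of whole soleus and TA was sequenced from non-stranded libraries. The authors trimmed the reads with Trimmomatic, aligned them with GSNAP to the mouse genome (mm10, GRCm38) and counted them per Ensembl gene with HTSeq, and the deposited values are whole-number counts. The annotation release and counting mode are not given in the sources used here. Groups were taken from the sample labels, each library being a separate muscle, and 0 columns belonged to other samples. Counts were filtered with filterByExpr (minimum count 10, minimum total 15), scaled by TMM and tested with edgeR 4.0.16 in R 4.3.3 (quasi-likelihood, Benjamini-Hochberg adjustment over all genes), within each muscle for genotype and over the 36 libraries for muscle and interaction. CPM levels use TMM factors over the 36 libraries (0.811 to 1.19), and correlations use log2 CPM with a prior count of 2. Scripts were tested on simulated data. Alternatives were DESeq2 1.42.0 (the test that the paper used, there in iDEP), limma 3.58.1 (voom with quality weights), RLE factors, no filter, no fold limit, blocks and leaving out each library. Gene positions are from GENCODE on GRCm38, and promoters from RefSeq.

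The members and gene lists were chosen with earlier results of these data known. Named genes are the members, Musk and, in each list of other immediate early, upstream and clock genes, every gene called (the 6 with the smallest p where more than 6 were called, the 3 with the smallest p where none was), called markers, and the 6 genes most and the 3 least like the members. The relations of Egr1 with marker lists and with the wider gene list were added after seeing the data. Replicates measure the spread between muscles of a group. Depth was 43492062 to 78660422 counts a library.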

Additional observations from a re-analysis of the deposited data

Results flagged for a closer look

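In 6 of the 40 combinations of a gene and a group, a library lay far from the other 8 on the CPM scale. Its gap to the nearest was over 0.493 of the range of the group. That limit flags about 1 in 20 for independent values with a normal spread. CPM values need not have that spread and the members covary, so the 6 cannot be set against that rate. In WT TA replicate 9, Fos was 12.5 CPM, with 4.16 CPM in the next library, and Egr2 was 1.36 CPM, with 0.624 CPM in the next. Junb was 28.5 CPM in WT soleus replicate 3, with 19.6 CPM in the next library, and 18.8 CPM in ∆Ig3-MuSK TA replicate 3, with 10.2 CPM in the next. Atf3 was 22.2 CPM in WT soleus replicate 6, with 12.3 CPM in the next library. Egr3 was lowest in ∆Ig3-MuSK soleus replicate 5, at 0.235 CPM, with 0.517 CPM in the next.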

How the results depend on the processing

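Of 345 values of single members with an adjusted p under alternatives to the reported tests other than leaving out a library, 325 kept their direction and their side of the threshold, 11 lost their call, 7 gained one and 2 changed sign. Both sign changes were of Junb, at -0.052 for the interaction under limma-voom and 0.0094 for genotype in soleus in a single fit over 36 libraries. Members called for genotype in soleus numbered 1, but 3 under DESeq2 (Fosb, Egr2, Egr3), 3 under limma-voom (Fos, Fosb, Egr2), 0 with the replicate number as a block, and 0 to 3 when a library was left out. The Egr3 adjusted p was 0.0072 to 0.0668 over the alternatives that kept all libraries in soleus. For the interaction 0 were called, 1 under limma-voom and 0 to 2 when a library was left out. Between the muscles of ∆Ig3-MuSK mice 8 were called, 5 without the filter, 5 with the label number as a block, where Fos, Egr3 and Egr2 had adjusted p of 0.0709, 0.0743 and 0.0955, and 5 to 8 when a library was left out. Correlated pairs numbered 12 in each muscle, and 23 in soleus and 20 in TA with genotype means kept. They were 8 to 13 in soleus and 6 to 19 in TA when a library was left out (6 without WT TA replicate 9, 19 without ∆Ig3-MuSK TA replicate 6). Between muscles 0 to 1 members passed when a pair was left out. The causes were not tested.

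When a library was left out, log2 fold changes that crossed 0 ranged from -0.11 to 0.11 for Junb in soleus, from -0.018 to 0.50 for Fosb, -0.50 to 0.17 for Fos and -0.26 to 0.14 for Egr2 in TA, from -0.27 to 0.0043 for Fosb between ∆Ig3-MuSK muscles, and from -0.51 to 0.32 for Egr1 and -0.017 to 0.38 for Atf3 in the interaction.

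Over all genes, 185 were called for genotype in soleus, 486 by DESeq2, 653 by limma-voom, 347 with the replicate block and 312 in the single fit. Leaving out a library moved that count past 1.5 times in 15 of 18 cases, down to 22 and up to 602. In TA 3 were called, 225 by DESeq2, 150 by limma-voom, 10 without the filter, 0 with the replicate block and 692 in the single fit. For the interaction 0 were called, 797 by DESeq2, 959 by limma-voom, 1 with the label number as a block, and 0 to 1300 when a library was left out (920 without ∆Ig3-MuSK TA replicate 3, 1300 without WT TA replicate 9). In TA 3 to 9 were called when a library was left out. Replicate numbers did not pair the samples: same-numbered libraries correlated at -0.33 to 0.36 in soleus and -0.13 to 0.45 in TA, and 1 of 9 in each muscle correlated best with its own number. Label numbers joined soleus and TA libraries at 0.024 to 0.18 in WT and -0.00084 to 0.35 in ∆Ig3-MuSK mice, where 3 and 6 of 8 correlated best with their own number, a hint from the data only. Low counts limit Egr3, Fosb and Egr2, with as few as 4 counts in a library.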
